A study of Mus musculus with 21 samples.

Results

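The 9 complement genes described here are C1qa, C1qb and C1qc, which encode the chains of C1q, the components C2, C3, C4b and Cfb, and C3ar1 and C5ar1, the receptors for the peptides released from C3 and C5. They were taken by name, with earlier results of these data known, from 24062 genes in a count table of mouse colon RNA sequencing. All 9 passed the filter on low counts and belong to the 15936 genes tested. The 21 libraries fall into 7 groups of 3, all from C57BL/6 mice, with ages not given. Wild-type males gave normal colon and tumours, as did males carrying the knock-in App NL-G-F, an allele with mutations related to Alzheimer's disease. Wild-type females gave normal colon and tumours, and knock-in females gave normal colon, with no tumour group analysed here. Tumours came from AOM/DSS treatment, in which the carcinogen azoxymethane is combined with dextran sulfate sodium, an agent that injures the colon lining. The normal libraries are labelled as not treated, whereas the study's design text speaks of normal tissue beside tumours, or of normal colon where none had grown. If the labels hold, tumour and treatment cannot be told apart in comparisons of tumour with normal colon. The same then holds for the interactions built on them. The series asks how App mutations change the outcome of AOM/DSS treatment in each sex. The labels do not say whether the libraries of a group come from separate animals, so the p-values measure the spread between these libraries, which may be technical.

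Complement is a cascade of plasma and tissue proteins that marks cells, debris and microbes for removal. C1q binds targets such as antibody complexes and dying cells and opens the classical pathway, in which C4 and C2 form the enzyme that cleaves C3. Factor B, the product of Cfb, forms the corresponding enzyme of the alternative pathway. The peptides C3a and C5a then act on C3ar1 and C5ar1, which are carried mainly by myeloid cells. In most tissues C1q is made by macrophages, whereas C3 and factor B are also made by epithelial and stromal cells.

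In the GRCm38 annotation (GENCODE), which has the coordinates of mm10, the build named in the submitters' processing notes, all 9 genes are protein-coding and lie on the minus strand. The C1q genes sit side by side at chr4:136880129-136886187 (C1qb), chr4:136889804-136893065 (C1qc) and chr4:136895917-136898803 (C1qa), with 3616 and 2851 bases between neighbours. C4b (chr17:34728380-34743882), Cfb (chr17:34856374-34862518) and C2 (chr17:34862604-34898265) lie together on chromosome 17, with only 85 bases between Cfb and C2. C3 lies elsewhere on that chromosome (chr17:57203970-57228136). C3ar1 is at chr6:122847138-122856161 and C5ar1 at chr7:16246743-16259540.

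Promoter sequences from RefSeq (GRCm38.p6) were at hand for 5 of the 9 members. Those of C1qb, C3 and C5ar1 are shown, 1 for each of the groups of genes (C1q chains, components, receptors) described below. Each is the 250 bases before the RefSeq start, read 5′ to 3′ on the minus strand, from chr4:136886201-136886450 (C1qb), chr17:57228137-57228386 (C3) and chr7:16259339-16259588 (C5ar1). Capitals mark matches to the motifs searched.
C1qb: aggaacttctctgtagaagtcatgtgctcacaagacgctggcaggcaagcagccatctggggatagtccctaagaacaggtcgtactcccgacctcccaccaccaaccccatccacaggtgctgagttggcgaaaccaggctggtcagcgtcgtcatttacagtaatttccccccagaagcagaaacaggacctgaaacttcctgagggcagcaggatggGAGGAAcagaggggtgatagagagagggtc
C3: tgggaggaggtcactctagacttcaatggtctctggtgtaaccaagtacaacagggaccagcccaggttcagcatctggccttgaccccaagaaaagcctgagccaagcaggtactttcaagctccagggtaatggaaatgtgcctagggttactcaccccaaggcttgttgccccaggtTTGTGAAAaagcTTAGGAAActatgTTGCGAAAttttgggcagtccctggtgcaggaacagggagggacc
C5ar1: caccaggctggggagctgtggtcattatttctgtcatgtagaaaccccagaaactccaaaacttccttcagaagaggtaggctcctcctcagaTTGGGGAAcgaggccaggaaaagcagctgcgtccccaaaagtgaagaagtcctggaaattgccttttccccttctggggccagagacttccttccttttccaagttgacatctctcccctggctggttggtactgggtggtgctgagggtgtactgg
The motifs were searched on both strands. They were GAGGAA, a core of sites for the myeloid factor PU.1, TTNNGNAA, a C/EBP pattern, TTCNNNGAA, the STAT pattern, and the NF-kappaB motif. The C1qb window holds GAGGAA starting 30 bases before the start, a motif found in 23.3% of 32851 promoter windows of the same length. The C3 window holds TTNNGNAA at 70, 58 and 45 bases before the start. That pattern is in 36.8% of windows, and 3 or more copies are in 2.61%. The C5ar1 window holds 1 copy of TTNNGNAA, 157 bases before the start, and also includes a short first exon of another GENCODE transcript of the gene. STAT matches occur in 7.02% of windows and NF-kappaB matches in 3.90%, and none of the 3 windows shown holds either. A match is a description of the sequence, not a measured site.

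Library totals ran from 3414123 counts (wild-type male tumour replicate 2) to 26174008 (wild-type female normal replicate 1). The members had between 23 and 5563 counts in a library, and C2 in the shallow libraries was the most thinly counted. Levels below are CPM, counts scaled to a common library size with TMM factors, and levels per kilobase of annotated exon are used only to compare genes with each other. Per kilobase and averaged over the 21 libraries, Cfb was the highest member (41.3 CPM per kilobase), followed by C3 (33.4), C1qb (31.8), C4b (24.8), C1qa (19.7) and C1qc (13.4). The receptors were lower, at 3.70 for C5ar1 and 2.74 for C3ar1, and C2 was the lowest at 2.10. In bulk tissue, fewer cells of a type and less RNA per cell cannot be told apart. Smooth muscle markers (Myh11, Des and others, 6 of 6) were called lower in each of the 3 comparisons of tumour with normal colon, and the 8 epithelial markers were called lower in wild-type tumours of both sexes. The part of these differences in tissue make-up in the results below was not tested.

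**Figure D1:**
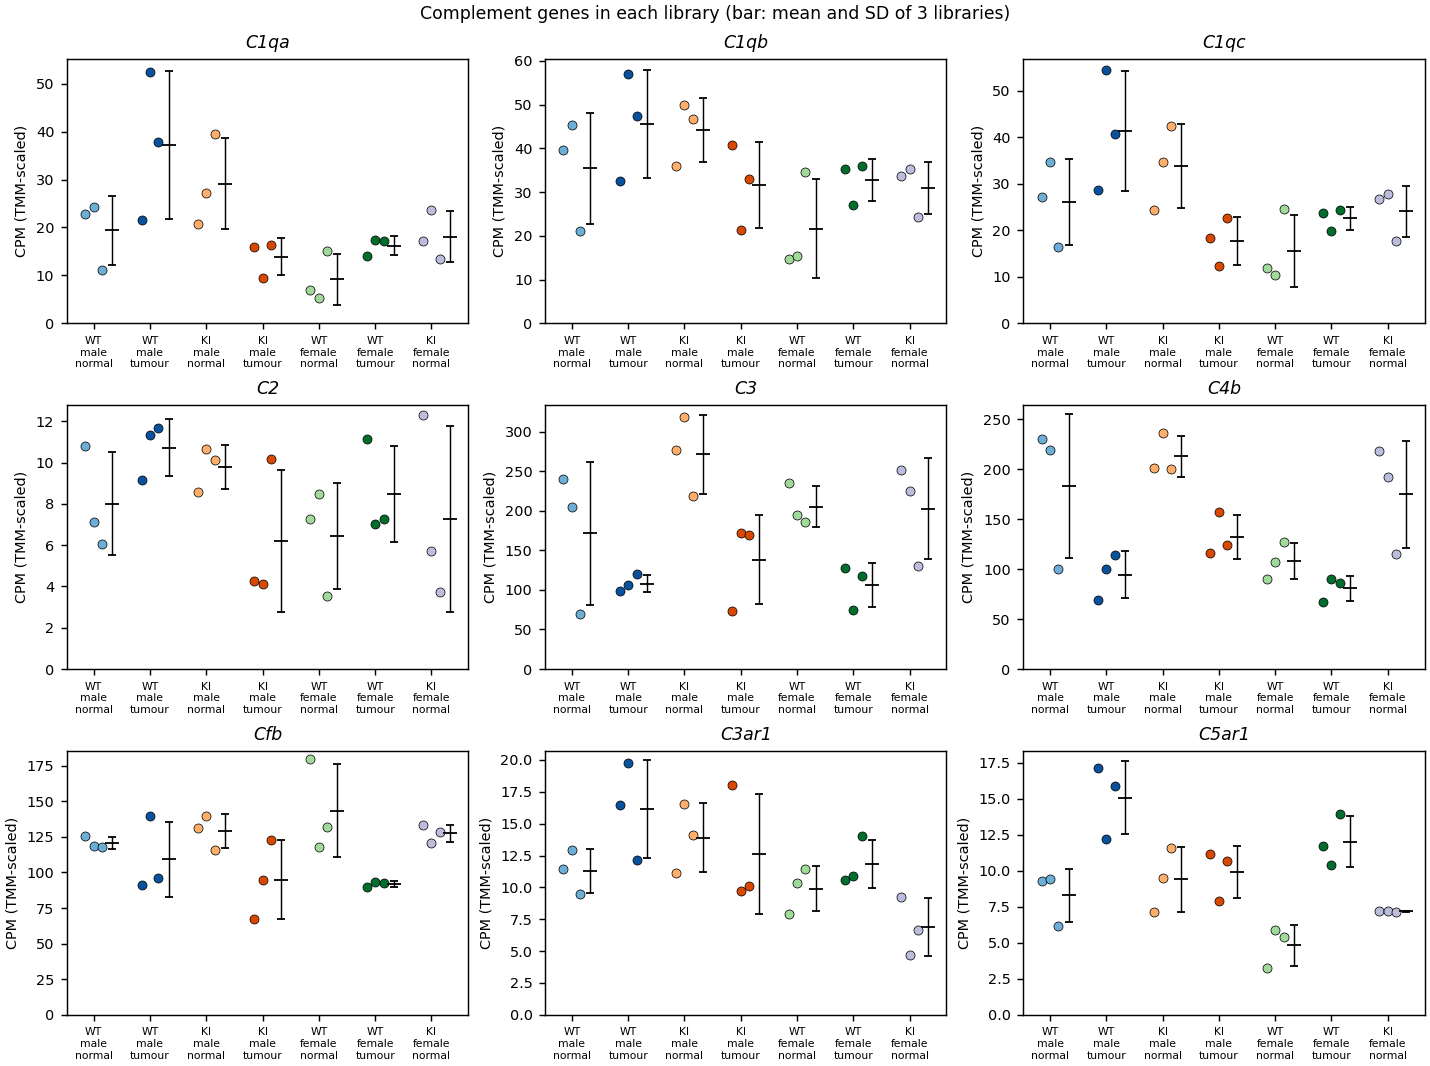
Levels of the 9 complement genes in each library (CPM after TMM scaling, linear axes from 0), with the mean and SD of the 3 libraries of each group beside the points. C1qa reaches 52.4 CPM in a wild-type male tumour library and stays at or below 16.2 CPM in the knock-in male tumours, while C3 is at or below 128 CPM in the wild-type tumours of both sexes.

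Different members moved in different comparisons (adjusted p from edgeR's quasi-likelihood test, threshold 0.05). Tumours of wild-type males had higher C5ar1 and lower C4b than normal colon, 2 of 9 members called, where 35.7% of all tested genes were called. Tumours of wild-type females had higher C5ar1 and lower Cfb, again 2 of 9, with 49.1% of all tested genes called. In knock-in males edgeR called 0 of 9 between tumour and normal colon, with 20.4% of all genes called. At an unadjusted p under 0.05 there were 5 of 9 members, beside 35.9% of all genes. The DESeq2 Wald test called 3 in that comparison (24.1% of all genes) and limma voom with quality weights, which gives each library its own weight, called 0 (15.1%). Between the genotypes, knock-in male tumours had lower C1qa and C1qc than wild-type male tumours, 2 of 9, beside 14.5% of all genes. In the comparisons of tumour with normal colon the share of members called was below that of all genes, and 2 of 9 between the male tumours is near the background. Members whose libraries did not overlap between the groups numbered 1 of 9 in wild-type males (52.4% of all genes), 4 in knock-in males (33.6%), 4 in wild-type females (58.4%) and 4 between male tumours (36.4%). In normal colon they numbered 0 between male genotypes (7.08%) and 1 between female genotypes (37.8%), and between the sexes 1 in wild-type normal colon (34.2%), 2 in knock-in normal colon (19.7%) and 2 in wild-type tumours (31.2%).

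The median log2 fold change of the members between tumour and normal colon was 0.41 for wild-type males, 0.38 for wild-type females and -0.68 for knock-in males, where the medians of all tested genes were all 0.01. In knock-in males 8 of 9 members had a negative estimate, and 6 of 9 were positive in each of the wild-type comparisons. Counts as one-sided occurred where few genes were called. Between genotypes in male normal colon 9 of 9 were positive (0.0126% of all genes called). Between the sexes 9 of 9 were negative in wild-type tumours (0.86%) and in knock-in normal colon (0.584%). The share of genes called is not a background for counts of signs, and the share of all genes by sign is not given here. The C1q chains also follow each other, so the members are not independent. These comparisons of tumours with normal colon use separate normal libraries. The knock-in against wild-type comparison of tumours, with a member median of -0.52, shares its libraries with the male comparisons.

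**Figure D2:**
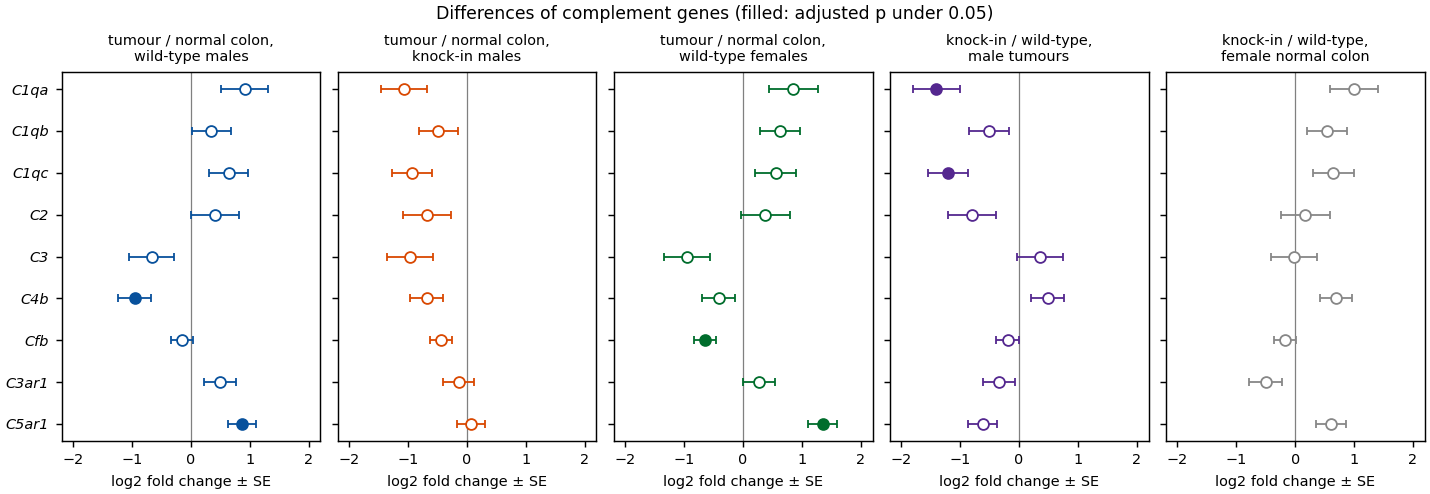
Log2 fold change of each complement gene in 5 comparisons, from edgeR, with a standard error derived from its F statistic. Filled points have an adjusted p under 0.05, which are C4b and C5ar1 in wild-type males, Cfb and C5ar1 in wild-type females, and C1qa and C1qc between male tumours.

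The C1q chain genes C1qa and C1qc were lower in tumours of knock-in males than in those of wild-type males, and C1qb did not pass the test. C1qa stood at 21.5, 52.4 and 37.9 CPM in the wild-type tumours and at 15.9, 9.41 and 16.2 CPM in the knock-in tumours. Every knock-in library was below every wild-type library, and the wild-type libraries were spread widely. The fold change was -1.41 on the log2 scale (SE 0.40, adjusted p = 0.0302 by edgeR), that is, 2.66-fold lower. C1qc stood at 28.7, 54.4 and 40.6 CPM in wild-type and 18.3, 12.4 and 22.5 CPM in knock-in tumours. It too was without overlap and fell by 1.21 on the log2 scale (SE 0.34, adjusted p = 0.0305). C1qb, the remaining chain of the same protein, overlapped between the groups, with 32.5, 57.0 and 47.4 against 40.8, 21.3 and 32.9 CPM, and its difference was -0.52 on the log2 scale (SE 0.33, adjusted p = 0.299).

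These calls rest on few libraries. For C1qa the adjusted p was 0.101 without wild-type tumour replicate 2, 0.0797 without wild-type replicate 3, 0.122 without knock-in replicate 2 and 0.0546 in a fit of only those groups. For C1qc it was 0.0981 without wild-type replicate 2, 0.0765 without wild-type replicate 3, 0.0602 without knock-in replicate 1 and 0.124 without knock-in replicate 2. The estimates stayed between -1.73 and -1.10 for C1qa and between -1.45 and -0.97 for C1qc whichever library was left out.

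The markers of other cells moved as follows between these tumour groups. The summed level of 8 macrophage markers (Csf1r, Adgre1, Mertk and others), none of them at 0 in either group, was 168 to 212 CPM in wild-type and 149 to 221 CPM in knock-in tumours, with 1 marker called higher and 1 lower. Summed epithelial markers ran from 6345 to 6998 CPM in wild-type and from 8084 to 13260 CPM in knock-in tumours, with 1 of 8 called higher. Smooth muscle markers ran from 174 to 694 CPM in wild-type and from 805 to 936 CPM in knock-in tumours, with 0 of 6 called by edgeR. The fibroblast sum was also without overlap, 1987 to 2307 against 2456 to 3517 CPM, with 1 of 6 called higher. The part of these markers in the C1q difference was not tested.

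Between tumour and normal colon the C1q chains had estimates of opposite sign in the male genotypes. In wild-type male normal colon C1qa stood at 22.8, 24.3 and 11.1 CPM, and the tumour estimate was 0.91 (SE 0.39, adjusted p = 0.0805), with overlap. In knock-in male normal colon it stood at 20.7, 27.2 and 39.5 CPM, above every knock-in tumour library, with a tumour estimate of -1.08 (SE 0.39, adjusted p = 0.0608). The difference of these tumour effects, tested as an interaction, was -1.99 (SE 0.56, adjusted p = 0.0623). For C1qc the estimates were 0.64 (SE 0.34, adjusted p = 0.151) and -0.94 (SE 0.34, adjusted p = 0.0582), with an interaction of -1.57 (SE 0.48, adjusted p = 0.0747). For C1qb they were 0.35 and -0.49, with an interaction of -0.83 (SE 0.47, adjusted p = 0.272). This interaction called 0 of 9 members with edgeR, where 1.51% of all genes were called. At an unadjusted p under 0.05 there were 3 of 9 members, beside 25.2% of all genes. DESeq2 called C1qa (adjusted p = 0.0104) and C1qc (adjusted p = 0.0205), where it called 9.65% of all genes, and limma voom called 0. Without knock-in normal replicate 2 edgeR called C1qa (adjusted p = 0.0373).

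Single libraries decide several neighbouring values. Without knock-in normal replicate 1, C1qa (adjusted p = 0.0468) and C1qc (adjusted p = 0.0412) were called lower in knock-in tumours than in normal colon. Without wild-type tumour replicate 1, C1qa was called higher in wild-type male tumours (adjusted p = 0.0414).

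Wild-type female normal colon had the lowest mean of all 7 groups for each C1q chain, with 1 library apart. C1qa stood there at 7.02, 5.30 and 15.2 CPM, and C1qb at 14.7, 15.5 and 34.7 CPM. Replicate 3 was the high library for all 3 chains, and it also had the highest macrophage marker sum of its group (271 CPM, beside 169 and 197 CPM). In wild-type female tumours C1qa was 14.0, 17.4 and 17.2 CPM. The tumour estimates were 0.85 for C1qa (SE 0.41, adjusted p = 0.0974), 0.62 for C1qb (SE 0.34, adjusted p = 0.143) and 0.55 for C1qc (SE 0.35, adjusted p = 0.2). Without normal replicate 3 they became 1.37, 1.12 and 1.01, with adjusted p = 0.0143, 0.0101 and 0.0249, and 5 of 9 members were then called in this comparison. The share of all genes called without that library is not given here, and with all libraries it was 49.1%.

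Knock-in female normal colon had 17.3, 23.7 and 13.3 CPM of C1qa and 33.6, 35.3 and 24.2 CPM of C1qb. Against wild-type female normal colon edgeR called 0 of 9 members, where 16% of all genes were called. At an unadjusted p under 0.05 there were 3 of 9 members, near the 31.2% of all genes. DESeq2 called 0 members (19.2% of all genes) and limma voom 5 (28.3%). C1qa had an estimate of 1.01 (SE 0.41, adjusted p = 0.103) and 1.52 without wild-type replicate 3 (adjusted p = 0.0206). C1qb and C1qc were likewise called only without that library among the omissions, at 1.04 (adjusted p = 0.0354) and 1.10 (adjusted p = 0.0359). In this comparison the macrophage sum overlapped, with 2 of 8 markers called higher, while the endothelial (3 of 4 called higher), fibroblast (3 of 6) and smooth muscle (2 of 6) sums were higher without overlap. The epithelial sum was lower without overlap in the knock-in (11112 to 11614 against 15340 to 26622 CPM), with 3 of 8 markers called lower. The part of these markers in the C1q and C4b estimates was not tested. In male normal colon the genotypes gave 0 called members with edgeR, DESeq2 and limma voom, 0 of 9 with an unadjusted p under 0.05, and 0.0126% of all genes called by edgeR.

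The ratio of C1q to macrophage markers differed between groups. In wild-type male tumours the sum of the 3 chains was 82.7, 164 and 126 CPM against marker sums of 168, 210 and 212 CPM, a log2 ratio of -0.71 ± 0.34 (SD, n = 3). In the corresponding normal colon the ratio was -1.51 ± 0.48, and every tumour library was above every normal library. Wild-type females showed the same order, -1.17 ± 0.14 in tumours and -2.29 ± 0.40 in normal colon, without overlap. There the marker sum was lower in tumours (158 to 161 CPM) than in normal colon (169 to 271 CPM). Single markers went both ways, with 2 of 8 called higher and 3 lower in wild-type tumours of either sex. In knock-in males 0 were called. The part of macrophage number in the ratio was not tested. Knock-in males showed the opposite order, -1.55 ± 0.25 in tumours and -1.16 ± 0.17 in normal colon, also without overlap. With only Csf1r and Adgre1 as markers the tumour-minus-normal difference of the log2 ratio was 0.24 in place of 0.80 in wild-type males, 0.38 in place of 1.12 in wild-type females and -0.37 in place of -0.39 in knock-in males. No p is given for this sum over members, and 3 against 3 libraries cannot give an exact two-sided p below 0.1.

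**Figure D3:**
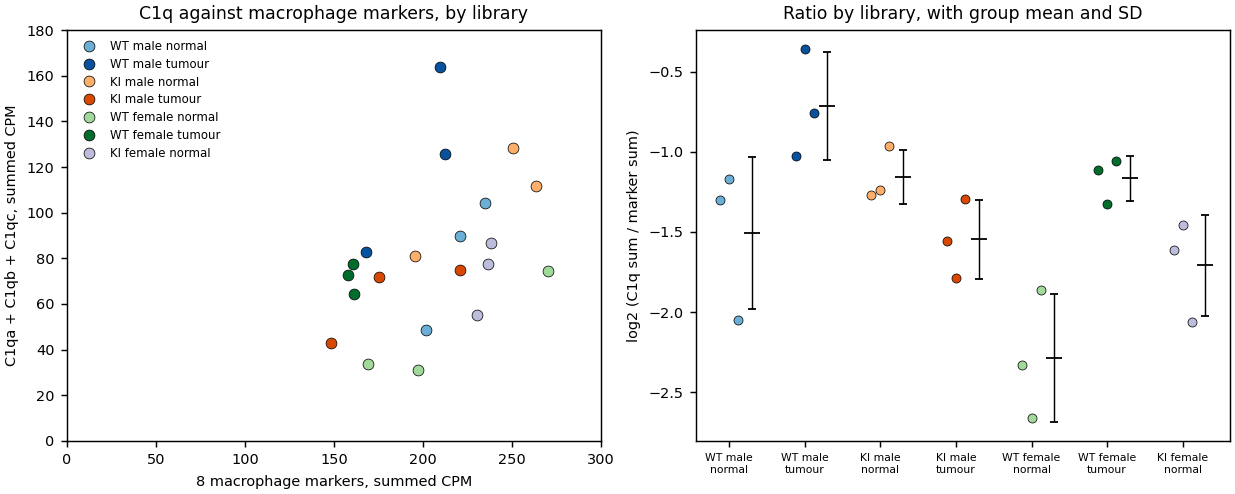
Left, summed CPM of C1qa, C1qb and C1qc against summed CPM of 8 macrophage markers in each of the 21 libraries. Right, the log2 ratio of these sums by library with group mean and SD, which is highest in wild-type male tumours (-0.71) and lowest in wild-type female normal colon (-2.29).

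C1q is assembled from equal parts of its chains, so the balance of their transcripts was described per kilobase. C1qa made up 35.4% ± 3.4 (SD, n = 3) of the C1q signal in wild-type male tumours and 25.9% ± 1.3 in knock-in male tumours, without overlap. C1qb made up 42.9% ± 2.8 and 56.2% ± 3.8 of it in the same groups, also without overlap. C1qc took 21.7% ± 0.9 and 17.9% ± 2.5. The shares of the other groups lay between these for C1qb, from 47.7% in knock-in male normal colon to 54.2% in wild-type female normal colon. For C1qa wild-type female normal colon had the lowest share, 23.6% ± 2.7, below that of knock-in male tumours. The shares are a description and depend on the annotated exon lengths.

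**Figure D4:**
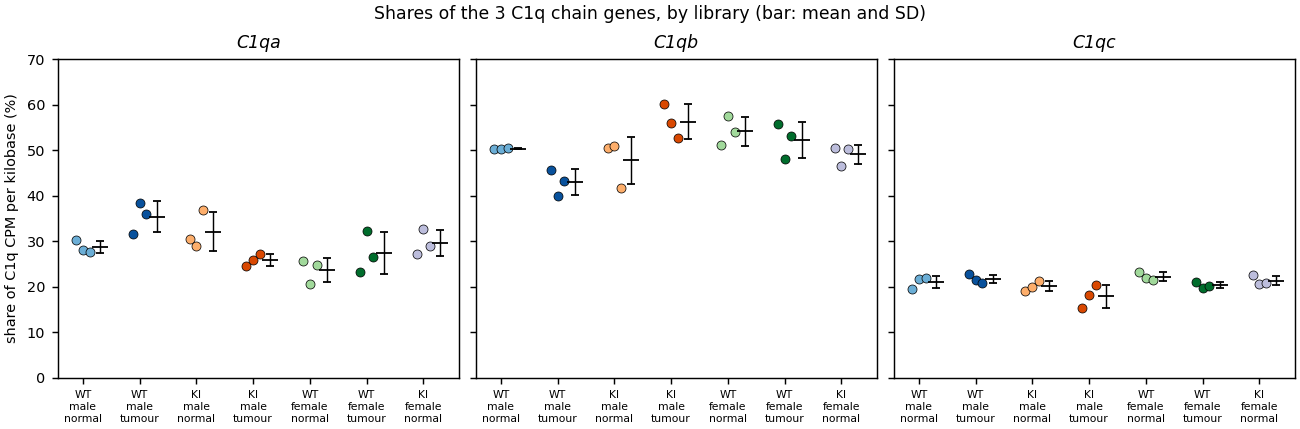
Share of each C1q chain gene in the sum of the 3, from CPM per kilobase of exon (percent, axis from 0), by library with group mean and SD. The C1qb share is lowest in wild-type male tumours (42.9%) and highest in knock-in male tumours (56.2%).

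C4b, which encodes the C4 of the classical and lectin pathways, was lower in wild-type male tumours. It stood at 230, 219 and 101 CPM in wild-type male normal colon and at 68.9, 100 and 114 CPM in the tumours. Normal replicate 3 lay within the range of the tumours, and the other normal libraries lay above it. C4b fell by 0.96 on the log2 scale (SE 0.28, adjusted p = 0.0134), 1.94-fold. The adjusted p was 0.0573 without normal replicate 1, 0.0655 without tumour replicate 1 and 0.0781 with only the compared groups. In knock-in males the values were 201, 237 and 201 CPM in normal colon and 116, 157 and 124 CPM in tumours, without overlap, with an estimate of -0.69 (SE 0.28, adjusted p = 0.0856). The tumour effects of the male genotypes did not pass a test of their difference (interaction 0.27, SE 0.39, adjusted p = 0.683). Between the male tumours C4b was higher in the knock-in without overlap, at 0.49 (SE 0.28, adjusted p = 0.234). In wild-type females C4b was 90.5, 108 and 127 CPM in normal colon and 66.8, 90.4 and 85.8 CPM in tumours, with an estimate of -0.42 (SE 0.28, adjusted p = 0.231).

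In knock-in female normal colon C4b was 218, 192 and 115 CPM, with an estimate of 0.70 against wild-type (SE 0.28, adjusted p = 0.0973). Without knock-in replicate b, the lowest, the estimate was 0.93 (adjusted p = 0.0363). Reads of C4b can be shared with its near-identical copy C4a, which had 5 to 33 counts per library against 345 to 4876 for C4b, and how the counting split them is not given in the sources used here.

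C2, whose product pairs with C4b in the C3-cleaving enzyme of the classical pathway, reached its lowest adjusted p in the 9 pairwise comparisons of groups, 0.189, between the male tumours. It had the lowest counts of the members, 23 to 229 per library. Group means ran from 6.20 ± 3.44 CPM (SD, n = 3) in knock-in male tumours to 10.7 ± 1.4 CPM in wild-type male tumours. The knock-in tumours stood at 4.29, 4.14 and 10.2 CPM, with replicate 3 inside the wild-type range of 9.15 to 11.7 CPM. The estimate between them was -0.80 (SE 0.42), and -1.34 without knock-in replicate 3 (adjusted p = 0.0453).

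C3, the protein on which all complement pathways meet, had negative tumour estimates in all 3 comparisons with normal colon, and edgeR called none of them. In wild-type females C3 stood at 235, 195 and 186 CPM in normal colon and at 128, 74.7 and 117 CPM in tumours. The groups did not overlap, and the estimate was -0.95 (SE 0.39, adjusted p = 0.0551). DESeq2 (adjusted p = 0.0187), limma voom (adjusted p = 0.00574) and the fit of only the compared groups (adjusted p = 0.00281) called it lower. In knock-in males C3 stood at 277, 318 and 218 CPM in normal colon and at 73.0, 172 and 170 CPM in tumours, without overlap, with an estimate of -0.97 (SE 0.39, adjusted p = 0.0845), which DESeq2 called (adjusted p = 0.0343). In wild-type males the normal libraries stood at 241, 204 and 69.5 CPM and the tumours at 98.0, 106 and 120 CPM. Normal replicate 3 lay below all tumours, and the estimate was -0.67 (SE 0.39, adjusted p = 0.194), or -1.05 without that library (adjusted p = 0.0296). Limma voom called it lower with all libraries (-0.80, adjusted p = 0.0398). Normal replicate 3 was the lowest library of its group for all 9 members.

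Cfb, the alternative pathway component, was lower in tumours of wild-type females. It stood at 180, 118 and 132 CPM in normal colon and at 89.6, 93.5 and 92.6 CPM in tumours. The tumour libraries were close together and below every normal library. Cfb fell by 0.64 on the log2 scale (SE 0.19, adjusted p = 0.00822), 1.56-fold. Without normal replicate 1, the highest and the most deeply sequenced, the estimate was -0.45 (adjusted p = 0.0728). In wild-type males Cfb was 126, 119 and 118 CPM in normal colon and 91.5, 139 and 96.4 CPM in tumours, with an estimate of -0.16 (SE 0.19, adjusted p = 0.549). In knock-in males the estimate was -0.45 (SE 0.19, adjusted p = 0.0942), and -0.67 without tumour replicate 3 (adjusted p = 0.026). The difference between the sexes in the wild-type tumour effect on Cfb was -0.49 (SE 0.26, adjusted p = 0.442).

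Besides the smooth muscle markers given above, markers of other cells stood as follows between tumour and normal colon. The summed epithelial markers were lower without overlap in the tumours of all 3 comparisons with normal colon, with 8 of 8 called lower in wild-type tumours of either sex and 1 of 8 in knock-in tumours. B cell markers were called lower in knock-in males (4 of 5) and wild-type females (4 of 5). In wild-type males 0 of 5 were called, and their sum overlapped. The fibroblast sum was higher without overlap in wild-type female tumours, with 3 of 6 markers called higher and 1 lower. It overlapped in wild-type and in knock-in males. The part of these markers in the C3, C4b and Cfb values was not tested.

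C5ar1, the receptor for the inflammatory peptide C5a, was higher in the tumours of wild-type mice of both sexes. In wild-type males it stood at 9.26, 9.44 and 6.17 CPM in normal colon and at 17.1, 12.2 and 15.8 CPM in tumours, without overlap. The log2 fold change was 0.87 (SE 0.24, adjusted p = 0.00915), a 1.83-fold rise. The adjusted p was 0.0578 without normal replicate 3 and 0.0533 without tumour replicate 1. In wild-type females C5ar1 stood at 3.21, 5.85 and 5.42 CPM in normal colon and at 11.7, 10.4 and 13.9 CPM in tumours, without overlap. The log2 fold change was 1.35 (SE 0.25, adjusted p = 0.000245), a 2.55-fold rise, and the call held whichever of the 6 libraries was left out, with adjusted p between 0.000381 and 0.00295.

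In knock-in males C5ar1 stood close together in both tissues. The values were 7.10, 9.5 and 11.6 CPM in normal colon and 11.2, 7.87 and 10.7 CPM in tumours, which overlapped. The estimate was 0.07 (SE 0.24, adjusted p = 0.855), and it turned negative without normal replicate 1 (-0.13) or tumour replicate 1 (-0.07). The interaction with the wild-type male effect was -0.80 (SE 0.34, adjusted p = 0.157), which did not pass the threshold. Knock-in male tumours lay below wild-type male tumours without overlap, with an estimate of -0.62 (SE 0.24, adjusted p = 0.0832). DESeq2 (adjusted p = 0.0471) and limma voom (adjusted p = 0.022) called that difference.

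C5ar1 rose beside neutrophil markers. The sum of 6 such markers (S100a8, S100a9, Cxcr2 and others) ran from 1.89 to 24.9 CPM in wild-type male normal colon and from 33.1 to 65.2 CPM in the tumours, and from 3.0 to 7.53 CPM in wild-type female normal colon and 55.9 to 167 CPM in the tumours. In knock-in males it ran from 9.18 to 21.3 CPM in normal colon and from 34.4 to 54.1 CPM in tumours, also without overlap. In order, 2, 6 and 0 of the 6 were called higher by edgeR. None of the 6 markers was at 0 throughout a group, and their part in the C5ar1 values was not tested.

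C3ar1, the receptor for C3a, reached its lowest adjusted p, 0.0888, between the sexes in knock-in normal colon. Normal colon of knock-in females had the lowest group mean, 6.87 ± 2.26 CPM (SD, n = 3), and wild-type male tumours the highest, 16.1 ± 3.8 CPM. In wild-type males it was 11.4, 13.0 and 9.45 CPM in normal colon and 16.5, 19.8 and 12.2 CPM in tumours, which overlapped, with an estimate of 0.50 (SE 0.27, adjusted p = 0.164). Between knock-in females and knock-in males, normal colon had 9.23, 4.72 and 6.66 against 11.1, 16.5 and 14.1 CPM, without overlap, 2.01-fold lower in females (SE 0.27 on the log2 scale).

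Comparisons between the sexes gave 1 called member. C5ar1 was lower in wild-type female than wild-type male normal colon, at -0.82 on the log2 scale (SE 0.25, adjusted p = 0.0324), without overlap, where 15.9% of all genes were called. That adjusted p was 0.182 without female replicate 1, 0.115 without male replicate 1, 0.105 without male replicate 2, 0.0534 with replicate number as a block and 0.116 with only the compared groups. In the same comparison C1qa had an estimate of -1.12 (adjusted p = 0.0699) and C4b -0.76 (adjusted p = 0.0698). The fibroblast sum (1031 to 1244 against 2099 to 2355 CPM, 3 of 6 markers called lower) and the endothelial sum (43.4 to 71.8 against 101 to 147 CPM, 4 of 4) were lower in females without overlap, and the macrophage sum overlapped. The part of these markers in the sex differences was not tested. The count of called members was 4 without female replicate 3 and 4 without male replicate 3, and the shares of all genes in those fits are not given here. Between the sexes edgeR called 0 of 9 in wild-type tumours and 0 of 9 in knock-in normal colon, with 0.86% and 0.584% of all genes called. At an unadjusted p under 0.05 there were 2 of 9 and 1 of 9 members, near the 21% and 15.3% of all genes. DESeq2 called 1 in each (6.08% and 3.67% of all genes), and limma voom 1 and 0 (18.5% and 4.38%). C1qa in wild-type tumours was lower in females without overlap (-1.18, SE 0.40, adjusted p = 0.117). The interactions of tumour effect with sex and of genotype effect with sex in normal colon called 0 of 9 by edgeR, DESeq2 and limma voom, with 0 of 9 at an unadjusted p under 0.05, and 1.12% and 2.54% of all genes called by edgeR.

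When the 7 groups were ordered by mean level, 53 of the 54 neighbouring pairs over the members had overlapping libraries. The exception was C5ar1, with 7.20, 7.19 and 7.12 CPM in knock-in female normal colon above the 3.21 to 5.85 CPM of wild-type female normal colon. Wild-type male tumours were the highest group for C1qa, C1qb, C1qc, C2, C3ar1 and C5ar1. Knock-in male normal colon was the highest for C3 (271 ± 50 CPM) and C4b (213 ± 21 CPM), and wild-type female normal colon for Cfb (143 ± 33 CPM). The ratio of the highest to the lowest group mean was largest for C1qa at 4.07 and smallest for Cfb at 1.56. These ratios come from groups picked by their level and are descriptions.

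Other genes of the complement system were read from a list of 45, of which 31 passed the low-count filter. The others, among them Mbl1, Mbl2, Fcnb, C8a, C8b and C9, did not. Hc, which encodes C5, the precursor of the ligand of C5ar1, had at most 16 counts in any library. By edgeR, 9 of 31 were called in wild-type male tumours against normal colon (29%, with 2 higher and 7 lower), 1 of 31 in knock-in males (lower), 14 of 31 in wild-type females (45.2%, with 7 higher and 7 lower), 4 of 31 between male tumours (3 higher and 1 lower in the knock-in) and 5 of 31 in female normal colon (all higher in the knock-in). These shares lie near or below those of all genes given above.

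Of 12 regulators of complement tested, 6 were called in wild-type males (35.7% of all genes), 6 in wild-type females (49.1%) and 1 in knock-in males (20.4%). Cfi, the protease that inactivates C3b and C4b, stood at 45.0, 41.0 and 19.2 CPM in wild-type male tumours and at 2.74, 15.7 and 0.20 CPM in normal colon, and rose (log2 fold change 2.48, SE 0.89, adjusted p = 0.0414). In wild-type female tumours it stood at 34.8, 22.9 and 54.3 CPM, where normal colon had 10, 0 and 3 counts (adjusted p = 0.000401), too few for a fold change to be read. Several membrane regulators fell. Cd55, which speeds the decay of C3-cleaving enzymes, fell by 0.58 in wild-type male tumours (adjusted p = 0.0195) and by 0.48 in wild-type female tumours (adjusted p = 0.0381). Cd59a, which blocks the terminal pore, was the 1 gene called in knock-in male tumours (-1.45, SE 0.49, adjusted p = 0.0423), and it also fell in wild-type males (-2.24, adjusted p = 0.00346) and wild-type females (-1.71, adjusted p = 0.0092). Csmd1, a large membrane regulator, had 3 to 12 counts in wild-type male tumours and 31 to 156 in normal colon, and was lower (adjusted p = 0.00845). In wild-type females it had 1 to 8 counts in tumours and 8 to 60 in normal colon (adjusted p = 0.00187). In knock-in males it had 16 to 32 counts in tumours and 44 to 131 in normal colon, and was not called (adjusted p = 0.0571). These counts are too few for fold changes to be read. Serping1, the inhibitor of the C1 proteases, was not called in the 3 tumour comparisons, whose group means ran from 41.7 to 72.1 CPM.

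Clu encodes clusterin, a secreted chaperone that also binds terminal complement proteins. Its level was 405 ± 108 CPM (SD, n = 3) in tumours of wild-type females and 51.5 ± 15.6 CPM in the normal colon, 2.97 higher on the log2 scale (SE 0.41, adjusted p = 2.19e-05). Its estimates were 0.66 (adjusted p = 0.193) in wild-type males and 0.44 (adjusted p = 0.428) in knock-in males. Clu was also higher in knock-in than in wild-type female normal colon, 138 ± 54 CPM against 51.5 CPM (log2 fold change 1.41, adjusted p = 0.0228).

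Of 7 tested receptors beyond the members, 6 were called in wild-type female tumours, 5 higher and 1 lower, where 49.1% of all genes were called. The integrin chains Itgam, Itgax and Itgb2, which form receptors for fragments of C3, were among those that rose, and Itgax also rose in wild-type males (log2 fold change 0.91, SE 0.32, adjusted p = 0.0354). Cr2, the receptor of B cells and follicular dendritic cells for C3 fragments, fell by 2.70 in wild-type female tumours (SE 0.92, adjusted p = 0.0228), beside the B cell markers given above. Its estimates were -2.23 (adjusted p = 0.0649) in knock-in males and -1.49 (adjusted p = 0.177) in wild-type males. C7, a component of the terminal pore, had 0 to 5 counts in wild-type male tumour libraries and 42 to 308 in normal colon, and it was lower (adjusted p = 0.000589).

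Between male tumours the knock-in libraries had more C7 (18 to 96 counts, adjusted p = 0.0218), more Cd55 (89.9 ± 10.3 against 57.9 ± 9.8 CPM, log2 fold change 0.64, adjusted p = 0.0306), more Cr1l, the mouse membrane regulator also called Crry (log2 fold change 0.50, adjusted p = 0.0341), and less Cfp, which encodes properdin, the stabiliser of the alternative pathway enzyme (8.38 ± 1.76 against 15.5 ± 4.0 CPM, log2 fold change -0.86, adjusted p = 0.0465). The count of 4 became 0 without wild-type tumour replicate 1, 2 or 3 or knock-in replicate 2. In female normal colon Fcna, a lectin pathway recognition protein, was higher in the knock-in (log2 fold change 1.10, SE 0.36, adjusted p = 0.0438), and the count of 5 became 1 or 2 without wild-type replicate 1 or 2 or knock-in replicate 1 or a. In knock-in males the single call was lost without normal replicate 1, and the count was 2 without normal replicate 2 or tumour replicate 3.

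**Figure D5:**
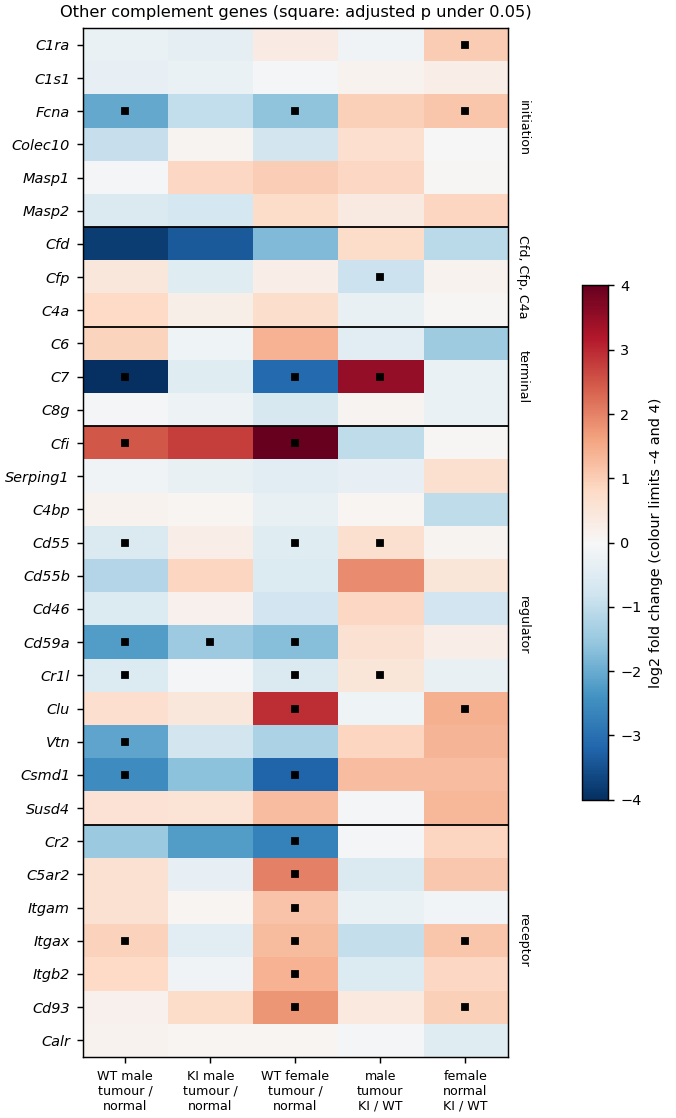
Log2 fold changes of 31 other complement genes (rows, ordered by role) in 5 comparisons (columns), as colours limited at -4 and 4. Black squares mark an adjusted p under 0.05 by edgeR. Cfi is red in the tumour columns, Clu is strongest in wild-type females, and squares are most frequent in wild-type females (14) and fewest in knock-in males (1).

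The members fell into loose sets across the 21 libraries, described by Pearson's r of log2 CPM with no test, since the libraries share groups and cell composition. The C1q chains followed each other (r from 0.92 to 0.97), also after group means were removed (r from 0.89 to 0.94). C3 and C4b had r = 0.72, C3 and Cfb r = 0.64, and C1qa and C3 r = 0.02. C5ar1 and Cfb had r = -0.64. Of 12501 genes compared, those most like C1qa were Hcls1, Apoe and Ncf1 (r = 0.91 each), those most like C3 were Cxcl13 (0.82), Pou2af1 (0.79) and Sp110 (0.78), and those most like C5ar1 were Limk1, Htra1 and Slc11a1 (0.93 each).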

How the data were processed

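Per the labels' protocols, colon RNA was freed of ribosomal RNA and copied into cDNA with random primers before Illumina sequencing. The deposited table holds raw counts per gene, made by the authors; the submitters' processing notes name Trimmomatic, HISAT2, featureCounts, DESeq2 and mm10. The annotation, strand setting and handling of shared reads are not given in the sources used here. A deposited DESeq2 results table was not used. The header of 2 count columns of knock-in female normal colon is the same, so these were used as unnumbered replicates a and b, and 0 per-sample columns were left out.

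All 21 libraries entered 1 fit with edgeR 4.0.16 (R 4.3.3): TMM scaling, the filterByExpr filter by group, robust quasi-likelihood F tests, two-sided, with Benjamini-Hochberg adjustment over 15936 genes and a threshold of 0.05. Each SE of an edgeR estimate was derived as the absolute log2 fold change divided by the square root of its F statistic. Log2 CPM used a prior count of 2. Totals of 3414123 to 26174008 counts per library limit the precision of low genes. Exon lengths and coordinates come from GENCODE M21. The scripts were tested on simulated counts. The alternatives tried were scaling by DESeq2 size factors or by library totals, other count filters, the DESeq2 1.42.0 Wald test, limma 3.58.1 voom with quality weights (written limma voom), only the compared groups, a replicate block, a covariate for the 3 libraries numbered 152 and above, and each library left out.

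Replicate numbers come from the labels. Same-numbered libraries of tumour and normal colon deviated together at every number in wild-type males only (correlations 0.17, 0.17 and 0.21). These values are low, and number 1 had 0.46 between normal colon of the male genotypes. Whether the numbers pair tumour with normal colon is therefore not settled. The block was a replicate effect common to all groups but knock-in female normal colon, not a test of pairs within wild-type males. With it the count of called members in wild-type males stayed at 2.

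The members, and the lists of pathway genes and cell markers, were chosen with earlier results of these data known. All members are reported. Of the pathway list, those named are up to 2 higher and 2 lower called genes per comparison with the largest change and a mean of at least 50 counts in a group, together with Clu, Cd55, Serping1, Cr2 and Hc. Part of the list is not reported here. Cr1l, the integrin chains and the genes listed as not passing the low-count filter, other than Hc, were named after their values were seen. Genes of like pattern are the 3 with the highest r for C1qa, C3 and C5ar1.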

Additional observations from a re-analysis of the deposited data

How the results depend on the processing

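Of the alternatives to 55 results on single members, 803 of 870 values kept their direction and their side of the threshold. The counts of called members moved as follows. Fitted on the compared groups alone, the count was 1 in wild-type male tumours against normal colon, 1 in knock-in males, 1 between male tumours, 1 between the sexes in wild-type tumours and 0 in wild-type normal colon. DESeq2 called 3 in knock-in male tumours against normal colon (24.1% of all genes) and 2 in the interaction of tumour and genotype (9.65%). Between the sexes it called 1 in wild-type tumours (6.08%), 3 in wild-type normal colon (20.4%) and 1 in knock-in normal colon (3.67%). Limma voom called 6 in wild-type female tumours (58.1% of all genes) and 5 between genotypes in female normal colon (28.3%). Between the sexes it called 1 in wild-type tumours (18.5%) and 5 in wild-type normal colon (33.7%). The covariate for late libraries gave 1 in knock-in males. With each library left out in turn the counts ran from 1 to 2 in wild-type males, 0 to 2 in knock-in males, 1 to 5 in wild-type females, 0 to 3 between male tumours, 0 to 3 between genotypes in female normal colon, 0 to 4 between the sexes in wild-type normal colon and 0 to 1 in the interaction of tumour and genotype. For the other pathway genes they ran from 6 to 9, 0 to 2, 12 to 14, 0 to 4 and 1 to 6 in the order of the report. Shares of all genes are not given here for fits of the compared groups, with the covariate or without a library. Those counts therefore have no background beside them. The count of pathway genes in knock-in males was 3 with a mean of at least 50 counts, 6 with DESeq2, 2 with the late covariate and 0 with the compared groups alone. In female normal colon it was 3 with no count filter and 12 with limma voom. The cause of these differences was not tested.

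The replicate block gave 0 members between the sexes in wild-type normal colon and 2 pathway genes between male tumours. The block changed no other count by more than 1.5 times, and it could not be fitted for knock-in females. Directions turned for 6 estimates, none of them called by edgeR with all libraries. C5ar1 in knock-in males became -0.13 without normal replicate 1 and -0.07 without tumour replicate 1, in a range from -0.13 to 0.25. Cfb between male tumours became 0.011 without wild-type replicate 2 (range -0.42 to 0.011). In female normal colon C2 became -0.10 without wild-type replicate 3 and -0.46 without knock-in replicate 1 (range -0.46 to 0.49), Cfb 0.029 without wild-type replicate 1 (range -0.30 to 0.029), and C3 0.072 with library totals, 0.011 with a mean of at least 50 counts, 0.09 without wild-type replicate 1 and 0.22 without knock-in replicate b (range -0.20 to 0.22). The C3 interaction of tumour and genotype became 0.075 without wild-type normal replicate 3 (range -0.64 to 0.075). Library totals in place of TMM moved the median of all genes by 0.14 in wild-type female tumours and by 0.11 in its interaction with sex. Depth limits C2 most, with as few as 23 counts in a library.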
